A study of Mus musculus with 9 samples.

Results

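Kv4 channels are voltage-gated potassium channels that open below the firing threshold and inactivate quickly, and they carry much of the A-type current that sets how a neuron's dendrites respond to input. The pore is a tetramer of subunits encoded by Kcnd genes. Kcnip genes encode KChIP proteins, calcium sensors with EF hands that bind the cytoplasmic N terminus of the pore subunit. Dpp6 and Dpp10 encode single-pass membrane proteins related to dipeptidyl peptidases that lack peptidase activity and act as auxiliary subunits. The set described here holds 8 genes of this complex: the pore genes Kcnd2 and Kcnd3, the KChIP genes Kcnip1, Kcnip2, Kcnip3 and Kcnip4, and Dpp6 and Dpp10. Its members were chosen as the probe sets that the platform annotation gives to 1 of these genes alone. These were 158 of the 318760 probe sets with 1 gene symbol, and all 8 genes were among the 16854 genes with a level.

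RNA of cerebral cortex from mouse embryos at stage E13.5 was measured on Affymetrix exon arrays, with 1 array per sample. There were 3 control samples labelled wild type, 3 samples labelled Sfpq+/- and 3 labelled Sfpq-/-, the last of these called homologous knock-out in the titles and the Sfpq+/- samples heterologous knock-out. Sfpq encodes a nuclear RNA-binding protein that acts in transcription and RNA processing. The labels give no strain, promoter or Cre driver, nor the part of Sfpq that was removed, and do not say whether the embryos of a group had different mothers, so that the p-values speak of the spread among these 9 samples, which may be technical. The extraction notes name Sfpq+/- a second time where Sfpq-/- would stand, and groups were taken from titles and genotype fields. Values are log2 signals, so a difference of 1 is a factor of 2 in signal. The level of a gene is the mean of its kept probe sets, those whose mean over the 9 arrays was above 5.64, the median over all probe sets. A gene passed where limma's adjusted p was under 0.05.

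The start regions are shown for the 4 genes with a single entry in RefSeq's promoter table (build GRCm38.p6). Of these, Kcnd2, Kcnd3 and Dpp10 fell in Sfpq-/- cortex and Kcnip2 did not pass. A link between the letters and these changes was not tested. Each window runs from 250 bases before the start to 50 after it, and capitals mark GC boxes, GGGCGG on either strand.
Kcnd2, + strand, chr6:21215096-21215395: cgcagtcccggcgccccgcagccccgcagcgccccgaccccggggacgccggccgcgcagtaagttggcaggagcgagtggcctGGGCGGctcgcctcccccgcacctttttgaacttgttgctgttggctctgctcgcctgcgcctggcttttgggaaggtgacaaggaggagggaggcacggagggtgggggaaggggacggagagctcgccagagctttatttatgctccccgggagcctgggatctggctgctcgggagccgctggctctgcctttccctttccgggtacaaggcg
Kcnd3, + strand, chr3:105451640-105451939: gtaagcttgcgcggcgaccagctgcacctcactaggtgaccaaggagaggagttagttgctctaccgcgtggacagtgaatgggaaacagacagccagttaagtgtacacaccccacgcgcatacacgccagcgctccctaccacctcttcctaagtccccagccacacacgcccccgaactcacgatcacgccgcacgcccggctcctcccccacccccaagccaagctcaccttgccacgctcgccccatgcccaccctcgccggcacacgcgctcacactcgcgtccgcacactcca
Dpp10, - strand, chr1:124045510-124045809: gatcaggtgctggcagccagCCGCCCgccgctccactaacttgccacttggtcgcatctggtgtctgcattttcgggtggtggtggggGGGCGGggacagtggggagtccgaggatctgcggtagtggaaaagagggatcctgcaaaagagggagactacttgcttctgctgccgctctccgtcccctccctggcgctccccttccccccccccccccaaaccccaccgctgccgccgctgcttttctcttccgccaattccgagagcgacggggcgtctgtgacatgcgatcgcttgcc
Kcnip2, - strand, chr19:45816014-45816313: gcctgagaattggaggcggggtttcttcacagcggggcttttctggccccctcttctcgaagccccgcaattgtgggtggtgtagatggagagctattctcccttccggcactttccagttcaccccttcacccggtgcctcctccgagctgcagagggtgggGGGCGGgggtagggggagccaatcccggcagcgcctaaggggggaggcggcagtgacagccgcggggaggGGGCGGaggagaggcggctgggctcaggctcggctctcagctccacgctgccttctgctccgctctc
The Dpp10 and Kcnip2 windows lie inside the annotated spans, which on this strand begin at position 124845815 and 45816422, so the start shown is not the outermost one annotated. A GC box was found in the windows of Kcnd2, Dpp10 and Kcnip2, and none in that of Kcnd3. Over the 15 windows that the table holds for the 8 genes, 8 held a GC box, against 35.7% of 32851 windows of all genes. The E-box letters CANNTG, read on both strands at once because the motif is its own complement, were in 12 of the 15 windows against 72.3% of all windows, and no GC box overlapped an E box in the 15. A match of letters is a description and not a site of binding.

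Sfpq signal itself checked the labels in part. The mean of the 12 Sfpq probe sets with a control mean above 10 was 12.09 ± 0.03 in control, 11.96 ± 0.11 in Sfpq+/- and 10.13 ± 0.17 in Sfpq-/- cortex (mean ± SD over 3 arrays each). The gene level over all kept Sfpq probe sets was lower in Sfpq-/- than in control by 1.15 (log2 change -1.15, SE 0.16, adjusted p = 0.000787). Its difference in Sfpq+/- was 0.12 (adjusted p = 0.9), which did not pass. Array medians lay between 5.648 and 5.697. Of 9 measured markers of cortical progenitors and neurons, such as Emx1, Emx2, Pax6 and Tbr1, Neurod6 fell by 0.41 in Sfpq-/- and the others did not pass. The mean level of these markers was 10.45 to 10.49 on control arrays and 10.43 to 10.51 on Sfpq-/- arrays. None of the 4 early neuron markers Map2, Stmn2, Tubb3 and Snap25 passed, and their mean level was 10.78 to 10.94 and 10.84 to 10.89. Of 5 markers of diencephalon and midbrain, Olig3 rose by 3.08, Barhl2 by 0.88 and Tcf7l2 by 0.81, and the others did not pass. The mean level of all 5 was 8.04 at most on control arrays and at least 8.87 on Sfpq-/- arrays. Of 7 ganglionic eminence and interneuron markers Gad1 rose by 0.98 and the others did not pass, with mean levels of 8.71 to 9.57 and 9.10 to 9.23. Of 5 microglial markers 3 rose, Tyrobp by 0.36 the most, with mean levels of 7.81 to 7.87 and 8.01 to 8.10. Of 5 genes of the dorsal midline and choroid plexus Rspo3 rose, of 4 endothelial and pericyte genes Rgs5 rose, and none of 5 meningeal or 2 erythroid genes passed. The part of these cell types in the results below was not tested. The groups differed in embryo sex, with Xist at 11.79 and 11.65 in controls 1 and 2, at 11.48 in Sfpq-/- replicate 1 and at 5.87 or below elsewhere.

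In Sfpq-/- against control cortex 6 of the 8 genes fell: both pore genes, Kcnip1, Kcnip3, Dpp6 and Dpp10. Kcnip2 and Kcnip4 did not pass, and no member rose. Over all genes 6.12% were called lower and 5.98% higher in this comparison. The members were chosen with earlier results of these data known. Long genes fell more often, 38.1% of those of 200 to 500 kb and 58% of those of 500 kb and over. All members but Kcnip2 and Kcnip3 are in these classes, so 6.12% is not a like-for-like share for the set. The median log2 change of the 8 members was -1.29, beside 0.03 over all 16854 genes. For 7 of the 8 members the Sfpq-/- arrays were all lower than the control arrays, as they were for 10.8% of all genes, and 16.1% of genes did not overlap in the other direction. In whole cortex, fewer cells that express these genes and less RNA per cell cannot be told apart.

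**Figure D1:**
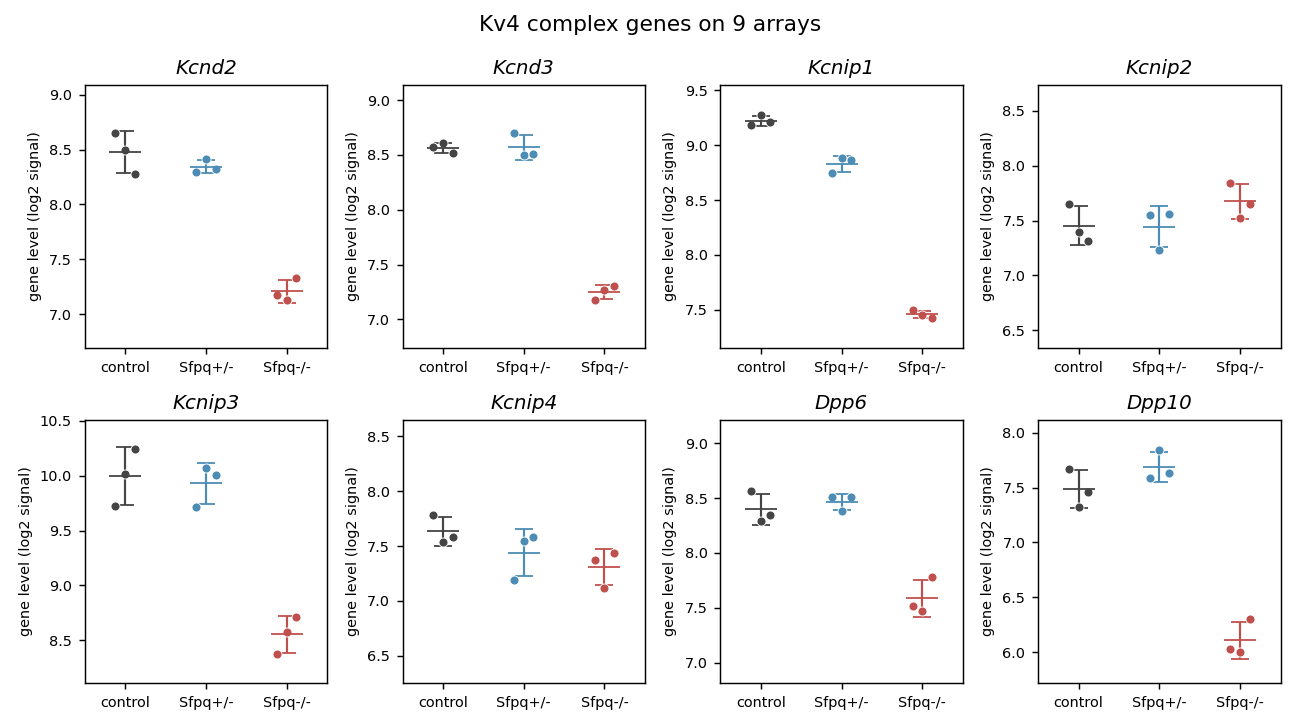
Gene level (log2 signal, vertical axis, 2.4 log2 units in every panel) of the 8 genes by genotype, with points for the 3 arrays of a group and bars for mean ± SD. The Sfpq-/- arrays stood apart below the others for Kcnd2, Kcnd3, Kcnip1, Kcnip3, Dpp6 and Dpp10, and overlapped with the Sfpq+/- arrays for Kcnip2 and Kcnip4.

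The pore gene Kcnd2 encodes the main subunit of dendritic A-type channels in cortical and hippocampal pyramidal neurons. Its level was 8.65, 8.50 and 8.28 on the 3 control arrays, 8.30, 8.41 and 8.32 on the Sfpq+/- arrays and 7.17, 7.13 and 7.33 on the Sfpq-/- arrays. All 3 Sfpq-/- arrays were low, and the Sfpq+/- arrays lay within the range of controls. Kcnd2 fell 2.41-fold in Sfpq-/- (log2 change -1.27, SE 0.10, adjusted p = 1.24e-05). Kcnd3, the other pore gene, was at 8.57, 8.61 and 8.52 in control, 8.70, 8.50 and 8.51 in Sfpq+/- and 7.18, 7.26 and 7.31 in Sfpq-/- cortex. The Sfpq-/- arrays again lay below all others, while control and Sfpq+/- arrays overlapped. Kcnd3 fell 2.49-fold (log2 change -1.32, SE 0.08, adjusted p = 2.16e-06). With the median of probe sets as the level its log2 change was -1.96. The difference between Kcnd2 and Kcnd3 within an array moved by 0.05 from control to Sfpq-/- arrays, beside an SD of 0.16 between control arrays (exact permutation test, two-sided, p = 0.7). With the median of probe sets it moved by 0.38, and without control replicate 3 by -0.02.

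Among the KChIP genes, Kcnip1 had the smallest adjusted p of the set. It was at 9.19, 9.27 and 9.21 in control, 8.75, 8.88 and 8.87 in Sfpq+/- and 7.495, 7.449 and 7.426 in Sfpq-/- cortex. The 3 groups did not overlap, with the Sfpq+/- arrays between the other two. Kcnip1 fell 3.40-fold in Sfpq-/- (log2 change -1.77, SE 0.07, adjusted p = 5.29e-07). The size depended on which probe sets made up the level: the log2 change was -1.35 with dim probe sets included, -2.43 with only those above the 75th percentile and -2.62 with the probe set median. Kcnip3, whose product is also known as DREAM or calsenilin and has been described as a calcium-dependent transcriptional repressor, was at 9.72, 10.02 and 10.25 in control, 9.72, 10.07 and 10.01 in Sfpq+/- and 8.38, 8.58 and 8.71 in Sfpq-/- cortex. All Sfpq-/- arrays lay below the others, and the control arrays were more spread than those of the pore genes (SD 0.26). Kcnip3 fell 2.72-fold (log2 change -1.44, SE 0.14, adjusted p = 6.24e-05).

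The other two KChIP genes did not pass. Kcnip2, the KChIP gene best known from heart, was at 7.65, 7.40 and 7.31 in control, 7.55, 7.23 and 7.56 in Sfpq+/- and 7.84, 7.53 and 7.66 in Sfpq-/- cortex. The groups overlapped, and the difference between Sfpq-/- and control was 0.22 (95% interval -0.05 to 0.49, adjusted p = 0.319). Kcnip4 was at 7.78, 7.54 and 7.58 in control, 7.19, 7.55 and 7.58 in Sfpq+/- and 7.37, 7.12 and 7.43 in Sfpq-/- cortex. Its Sfpq-/- arrays all lay below the control arrays (highest 7.43 against lowest 7.54), and 1 Sfpq+/- array was as low as they were. The difference was -0.33 (95% interval -0.60 to -0.06, unadjusted p = 0.0227, adjusted p = 0.125).

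Of the peptidase-like subunits, Dpp6 was at 8.56, 8.29 and 8.35 in control, 8.51, 8.38 and 8.51 in Sfpq+/- and 7.51, 7.47 and 7.78 in Sfpq-/- cortex. It fell 1.76-fold (log2 change -0.81, SE 0.10, adjusted p = 0.000359). Dpp10 was at 7.67, 7.33 and 7.46 in control, 7.59, 7.84 and 7.63 in Sfpq+/- and 6.027, 5.997 and 6.301 in Sfpq-/- cortex. For both genes the Sfpq-/- arrays lay below all others, and Sfpq-/- replicate 3 was the highest of them. The fall of Dpp10 was 2.60-fold (adjusted p = 1.76e-05, log2 change -1.38, SE 0.12). Its Sfpq-/- mean of 6.11 lay close to the limit of 5.64 for dim probe sets, so the size of the fall is not exact. The log2 change of Dpp10 was -1.05 with only probe sets above the 75th percentile and -1.25 with the probe set median. With dim probe sets included it was -1.32. Sfpq-/- replicate 3 was also the highest of its group for Kcnd2, Kcnd3, Kcnip3 and Kcnip4, and the lowest for Kcnip1.

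Members of 1 subfamily were compared within arrays, in 8 pairs. For Dpp6 and Dpp10 the difference of the levels was 0.91 ± 0.05 (SD, n = 3) on control and 1.48 ± 0.01 (SD, n = 3) on Sfpq-/- arrays, a change of 0.57 with no overlap between groups. That change was 0.37 with the probe set median and 0.59 with dim probe sets included. With only probe sets above the 75th percentile, Dpp6 changed by -0.79 and Dpp10 by -1.05, closer together than in the main fit. The pair was not tested under that filter. Kcnip1 moved by -1.99 relative to Kcnip2 and by -1.44 relative to Kcnip4, and Kcnip3 moved by -1.12 relative to Kcnip4. Kcnip2 moved by 1.66 relative to Kcnip3 and by 0.55 relative to Kcnip4. In these 6 pairs the groups did not overlap (exact permutation test, two-sided, p = 0.1, and 0.133 adjusted over the 8 pairs; with 3 arrays a group no p can be below 0.1). Kcnip1 moved by -0.32 relative to Kcnip3, and there the groups overlapped (exact permutation p = 0.2). That value changed sign, to 0.10, when dim probe sets were included. The share of other gene pairs without overlap is not given here. The KChIP pairs reuse the same genes and repeat their gene-level changes, so they are no separate evidence.

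Against the Sfpq+/- samples in place of controls, 6 of 8 members were lower in Sfpq-/- cortex, where 7.25% of all genes were called lower and 4.58% higher. For these 6 the arrays did not overlap, which held in this direction for 13.6% of genes and in the other for 13.2%. They were Kcnd2 (-1.14), Kcnd3 (-1.32), Kcnip1 (-1.37), Kcnip3 (-1.38), Dpp6 (-0.88) and Dpp10 (-1.58), with adjusted p between 1.03e-06 and 0.000188. The differences of Kcnip2 (0.23, adjusted p = 0.311) and Kcnip4 (-0.13, adjusted p = 0.594) did not pass. This comparison uses the Sfpq-/- arrays of the previous one and is no separate evidence.

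**Figure D2:**
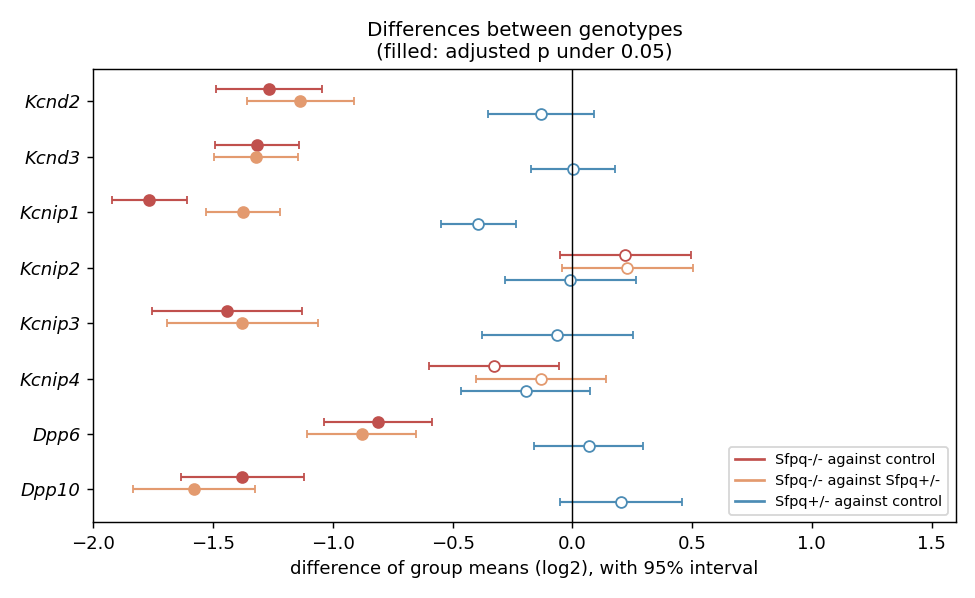
Difference of group means for each gene on the log2 scale (horizontal axis) with its 95% interval, for the 3 comparisons. Filled points passed limma's test, and these are the 6 lower genes in each comparison with Sfpq-/-; none of the Sfpq+/- against control points is filled, and the Kcnip1 interval of that comparison runs from -0.55 to -0.24.

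In Sfpq+/- against control cortex no member passed limma's test, and 0% of all genes did; 1 member and 715 of 16854 genes had an unadjusted p under 0.05 (2.02% lower and 2.22% higher). The median log2 change of the 8 members was -0.04, beside 0.03 over all genes. The one member was Kcnip1, at -0.39 (SE 0.07, unadjusted p = 0.000187, adjusted p = 0.886), and its Sfpq+/- arrays were all lower than its control arrays, as for 3.99% of all genes (8.52% were all higher). With only probe sets above the 75th percentile of all probe set means, the Kcnip1 difference was -0.61 and passed (limma adjusted p = 0.0255), as 1 gene in all did in that fit. Over all 16 alternative settings it lay between -0.62 and -0.27. The differences of the other members were -0.13 for Kcnd2 (95% interval -0.35 to 0.09), 0.00 for Kcnd3 (-0.17 to 0.18), -0.01 for Kcnip2 (-0.28 to 0.26) and -0.06 for Kcnip3 (-0.38 to 0.25). Those of Kcnip4, Dpp6 and Dpp10 were -0.20 (-0.47 to 0.08), 0.07 (-0.16 to 0.30) and 0.20 (-0.05 to 0.46). Falls of the size seen in Sfpq-/- cortex lay outside these intervals for Kcnd2, Kcnd3, Kcnip1, Kcnip3, Dpp6 and Dpp10.

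Single probe sets, each reading 1 stretch of a gene, were then examined. Of the 158 probe sets of the members 132 were kept, between 11 and 31 per gene, and 26 were dim. In Sfpq-/- against control 60 of the 132 were called lower and 0 higher, against 1.19% lower and 0.561% higher among all 628415 kept probe sets. Only 253544 of these 628415 had 1 gene symbol, as all probe sets of the members do. The share among those alone was not determined, here or for the other shares of all kept probe sets below. The 60 were 12 of 17 for Kcnip1, 10 of 13 for Kcnip3, 8 of 13 for Kcnd3, 6 of 11 for Kcnd2, 12 of 20 for Dpp10 and 12 of 31 for Dpp6, and none of 14 for Kcnip2 or 13 for Kcnip4. In 8 of the 60, 6 of Dpp10 and 1 each of Kcnd2 and Kcnd3, the Sfpq-/- mean was under the dim limit, so the size of their change is not exact. Against Sfpq+/- 61 of 132 were lower and 0 higher, where the shares of all probe sets were 1.5% and 0.425%. Probe sets of 1 gene share its RNA and are not replicates. Where in a gene each one lies was not analysed here.

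**Figure D3:**
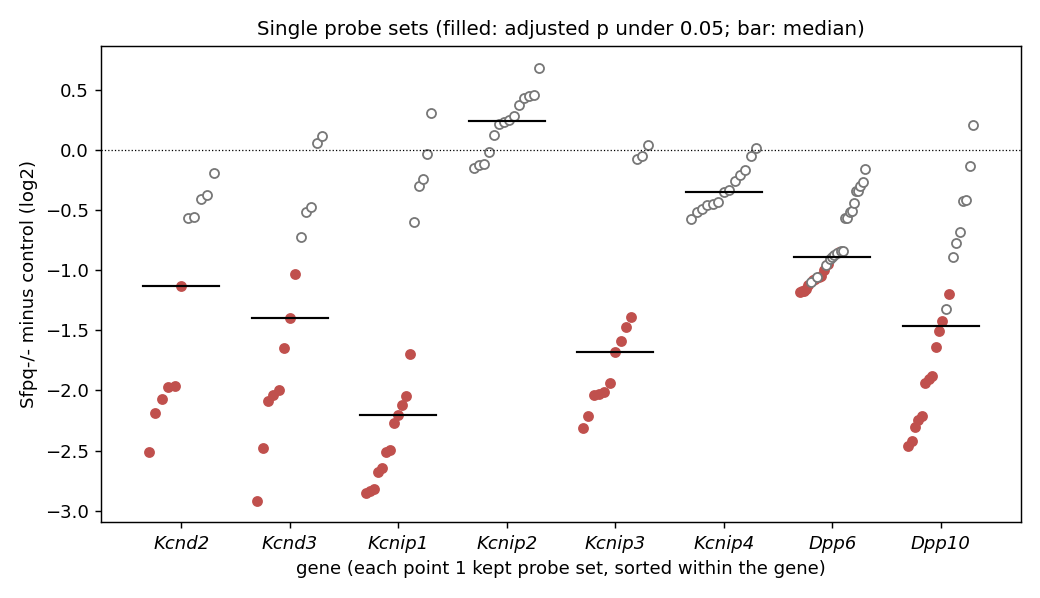
Log2 difference between Sfpq-/- and control means (vertical axis) of each kept probe set, grouped by gene, with bars for the median of a gene and filled points for probe sets with adjusted p under 0.05. In Kcnip1 and Kcnip3 the called probe sets, at -1.39 or lower, stand apart from the others, which run from -0.59 to 0.31 in Kcnip1 and from -0.08 to 0.04 in Kcnip3, while in Dpp6 the points run from -1.18 to -0.16.

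The spread of changes among probe sets of a gene differed between members. In Kcnip1 the called probe sets changed by -2.85 to -1.69, and the other 5, whose control means of 5.997 to 7.303 lay close to the dim limit, by -0.59 to 0.31. Probe set 4625056, the brightest of Kcnip1, read 11.67, 11.78 and 11.73 in control, 11.15, 11.23 and 11.20 in Sfpq+/- and 9.39, 9.28 and 9.90 in Sfpq-/- cortex. The groups of this probe set did not overlap, and its change in Sfpq-/- was -2.21 (SE 0.17, adjusted p = 0.000372). How many of all kept probe sets have groups that stand apart in this way is not given here. Probe set 4974634 had the most negative change of Kcnip1, -2.85, and 4463489 the most positive, 0.31 (adjusted p = 0.764). In Sfpq+/- against control no probe set of any member passed, and 0% of all probe sets did; in 12 of the 17 Kcnip1 probe sets all Sfpq+/- arrays lay below all control arrays, against 5.3% of all probe sets (5.27% were all higher), and the changes of the 17 ran from -0.80 to 0.54. Of all 132 probe sets, 14 had an unadjusted p under 0.05 in that comparison, against 2.3% lower and 2.19% higher among all. Those outside Kcnip1 were 4549240 (-0.63) and 5523341 (-0.46) of Kcnip4 and 5526715 (0.60) of Dpp10. The rest were all of Kcnip1 and share its RNA, so the count does not describe the complex as a whole.

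**Figure D4:**
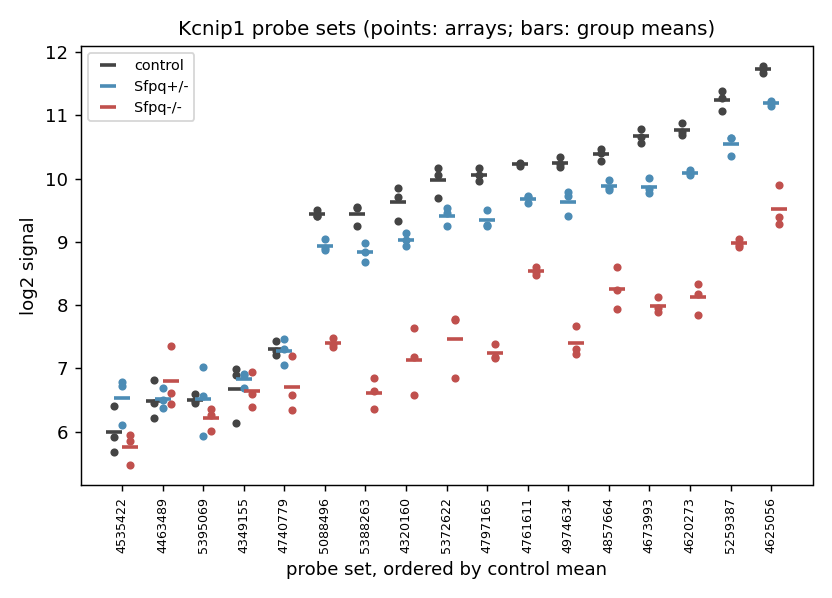
Log2 signal (vertical axis) of the 17 kept Kcnip1 probe sets, ordered by control mean, with points for arrays and bars for group means. In the 12 probe sets with control means of 9.44 or more the Sfpq+/- arrays lie between the control and Sfpq-/- arrays, and the 5 with control means of 7.30 or less show no such order.

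In Kcnip3 the 10 called probe sets changed by -2.31 to -1.39, and the other 3, with control means of 7.676 to 8.002, by -0.08 to 0.04. The brightest, 5117590, read 11.36, 11.88 and 12.28 in control and 9.34, 9.83 and 10.32 in Sfpq-/- cortex, a change of -2.02 (adjusted p = 0.00856). In Kcnd3 the called probe sets changed by -2.92 to -1.03 and the others by -0.73 to 0.12, the value of 4955687. The lower end is 4950130, whose Sfpq-/- mean of 4.67 was under the dim limit. Its brightest probe set, 5528456, read 10.45, 10.24 and 10.19 in control and 8.04, 8.18 and 8.55 in Sfpq-/- cortex (-2.04 in log2 change, adjusted p = 0.000549). In Kcnd2 the 6 called probe sets changed by -2.51 to -1.13 and the other 5 by -0.56 to -0.19, the value of 5483436. The lower end is 4383792, whose Sfpq-/- mean of 5.63 was also under the dim limit. The brightest of Kcnd2, 5230423, read 9.87, 9.75 and 10.07 in control and 7.56, 7.51 and 8.05 in Sfpq-/- cortex (-2.19, adjusted p = 0.000398). In each of these 3 brightest probe sets the control and Sfpq-/- arrays did not overlap. How many of all kept probe sets show no such overlap is not given here, so this cannot be judged as unusual.

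Dpp10 held a bright probe set that did not follow the gene. Probe set 4422684 read 10.75, 11.01 and 10.83 in control, 10.80, 10.87 and 10.74 in Sfpq+/- and 10.80, 10.32 and 11.07 in Sfpq-/- cortex, with overlapping groups (-0.13, adjusted p = 0.891). The most negative of Dpp10, 4425332, read 7.84, 7.52 and 7.34 in control and 4.28, 5.87 and 5.17 in Sfpq-/- cortex (-2.46, adjusted p = 0.00629), where the Sfpq-/- mean of 5.11 was under the dim limit. All 31 Dpp6 probe sets had a negative change, from -1.18 for 5003417 to -0.16 for 4881725, and the change of its brightest, 4979047, was -0.34 (adjusted p = 0.564). In Kcnip4 12 of 13 changes were negative, and they ran from -0.57 for probe set 4549240 to 0.02 for 4854985. Its brightest, 5001325, read 9.70, 9.24 and 10 in control and 9.20, 8.70 and 9.71 in Sfpq-/- cortex, with overlapping groups (-0.45, adjusted p = 0.669). In Kcnip2 10 of 14 changes were positive, and they ran from -0.15 for probe set 5530155 to 0.69 for 4783314 (adjusted p = 0.22). Its brightest, 4941565, read 10.44, 10.59 and 10.53 in control and 10.43, 10.17 and 10.59 in Sfpq-/- cortex, again with overlap (-0.12, adjusted p = 0.859).

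The signal of each probe set minus its gene's mean was tested to ask whether single probe sets moved apart from the rest of the gene. Of the 132 probe sets 14 moved below and 15 above their gene's mean in Sfpq-/- against control, against 0.444% and 0.483% of 248590 probe sets. They were 10 in Kcnip1, 6 in Kcnd2, 5 in Kcnip3, 4 in Kcnd3, 3 in Dpp10 and 1 in Dpp6, and none in Kcnip2 or Kcnip4. The Dpp10 probe sets 4422684 (deviation 1.25, adjusted p = 0.0121), 4627785 (1.58, adjusted p = 0.0133) and 4772073 (0.96, adjusted p = 0.0171) moved above, since they changed less than the gene did. In Kcnd3 5482907 (-1.16, adjusted p = 0.00205), 4950130 (-1.60) and 5528456 (-0.72) moved below and 4652611 (1.38) above. Of the 14 probe sets that moved below, 4950130 of Kcnd3 and 4383792 of Kcnd2 were under the dim limit in Sfpq-/- cortex, and the sizes of their deviations are not exact. In Kcnip3 4416972 (1.39) and 4719373 (1.48) moved above and 5576095 (-0.87), 5304000 (-0.59) and 4776476 (-0.59) below. The Dpp6 probe set was 4901085 (0.51, adjusted p = 0.0478). A gene's mean falls with most of its probe sets, so a probe set whose change is near 0 counts as moved above in this test. The count of 29 ran from 12 to 26 when 1 array was left out: 17 without control replicate 1, 12 without control replicate 2, 15 without control replicate 3 and 13 without Sfpq-/- replicate 1. It was 18, with 1 below and 17 above, when the gene's median replaced its mean.

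Gene span, the length from the first to the last annotated base in RefSeq's table (GRCm38.p6), differed widely over the complex, and the changes of members with similar spans differed too. Kcnip2 spans 24.1 kb (chr19:45792346-45816422) and Kcnip3 65.6 kb (chr2:127456498-127522094). Kcnd3 spans 222 kb (chr3:105451890-105674002), Kcnip1 364 kb (chr11:33629339-33993348) and Kcnd2 514 kb (chr6:21215346-21729805). Dpp6 spans 910 kb (chr5:26817357-27727500), Kcnip4 1136 kb (chr5:48389503-49525122) and Dpp10 1514 kb (chr1:123332138-124845815). Among 2271 genes of 50 to 100 kb the median log2 change was 0.03 and 5.64% fell; 4 of them, Kcnip3 included, had a change as low as that of Kcnip3. Among 713 genes of 200 to 500 kb the median was -0.18 and 38.1% fell. Of these 713 genes 7 were as low as Kcnip1 and 27 as low as Kcnd3. Among 205 genes of 500 kb and over the median was -0.45 and 58% fell; 17 were as low as Dpp10, 24 as low as Kcnd2, 53 as low as Dpp6 and 121 as low as Kcnip4. Kcnip4 is thus longer than all members but Dpp10 and did not pass, and Kcnip3 is shorter than all but Kcnip2 and fell. These ranks are descriptions and were not tested.

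**Figure D5:**
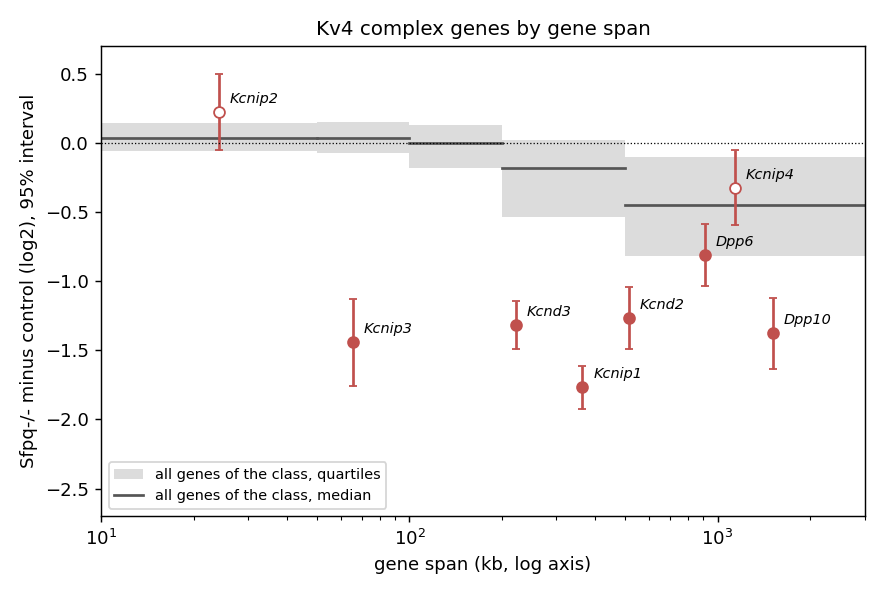
Log2 difference between Sfpq-/- and control (vertical axis, with 95% interval) against gene span (kb, log axis) for the 8 genes, with filled points for genes that passed. Grey bands and lines give the quartiles and medians of all genes in 5 span classes. Kcnip3, Kcnd3, Kcnip1, Kcnd2 and Dpp10 lie below the bands of their classes, and Kcnip2 and Kcnip4 do not. Dpp6, which passed, lies inside its band (-0.81 against a lower quartile of -0.82).

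Other genes of the same families were read from the same fit of Sfpq-/- against control. Of 29 measured genes of other Kv pore subunits 5 fell and 4 rose, with a median log2 change of 0.02. The 4 with the smallest adjusted p were Kcnb2 (-0.89, adjusted p = 4.6e-05), which encodes a delayed rectifier subunit, the M-current gene Kcnq3 (-1.02, adjusted p = 5.24e-05), Kcnh7 (-0.94, adjusted p = 6.9e-05) and the Kv7 gene Kcnq5 (-0.64, adjusted p = 0.000129). The difference of Kcnd1, a further Kv4 pore gene outside the 8 members that was picked out after its value was seen, was 0.07 (adjusted p = 0.749). Of 7 measured Kv auxiliary subunit genes outside the complex the beta subunit genes Kcnab2 (-0.82, adjusted p = 0.000268) and Kcnab3 (-0.26, adjusted p = 0.0345) fell and none rose (median -0.17). Of 7 dipeptidyl peptidase relatives of Dpp6 and Dpp10 none passed (median 0.12), and the smallest adjusted p were those of Prep (0.21, adjusted p = 0.0701), Dpp3, Fap and Dpp8. Of 7 measured calcium sensors related to the KChIP family, neurocalcin gene Ncald (-0.59, adjusted p = 0.000935) and visinin-like gene Vsnl1 (-0.65, adjusted p = 0.00427) fell, and Hpca and Hpcal4 did not pass (list median -0.03). Of 11 measured partners and regulators of Kv4 channels the ubiquitin ligase gene Nedd4l (-0.63, adjusted p = 0.000231) fell, and Camk2a (0.61, adjusted p = 0.000942), Dlg4 (0.32, adjusted p = 0.0429) and the T-type calcium channel gene Cacna1i (0.30, adjusted p = 0.0459) rose (median 0.12). In Sfpq+/- against control no gene of these lists passed.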

How the data were processed

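Expression was measured on 9 exon arrays, 3 per genotype group. The authors' deposited values are probe set signals on a log2 scale, as their range shows. The submitters' processing notes name Expression Console 1.2.0.20, and the design text an exon array tool. The sources used here do not state how background was corrected or how arrays were normalized and summarised. No further normalization was applied. Gene names of probe sets are those of the platform table, with old symbols updated through unique RefSeq synonyms. Of 1256831 probe sets 318760 had 1 symbol, 6684 had several and were not used, and 931387 had none there. Of all probe sets 628415 were kept, and genes needed at least 3. RefSeq's GRCm38.p6 tables served only for gene spans and start regions, matched by symbol. No array-level detection call was used.

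Gene levels, probe sets and deviations were each fitted over all 9 arrays with 3 group means by limma's lmFit and eBayes (version 3.58.1, under R 4.3.3). P-values were adjusted by Benjamini-Hochberg over all features fitted, with a threshold of 0.05. Each of the 3 tests was also run on simulated data, with an outcome that is not reported here. Such a run does not show how the tests behave on these arrays. Pairs of members were tested with exact permutation over arrays. The members and lists were chosen with earlier results of these data known. For each member the text names its brightest probe set, those with the most negative and most positive change, and all that moved apart from the gene where at most 5 did; for each related list it names up to 4 genes with the smallest adjusted p, and marker genes and Kcnd1 were picked after their values were seen. The number of arrays limits the precision: the median SE of a gene's difference was 0.096. Alternatives changed the filter, the gene summary, the normalization, the fit, a block, a covariate and the arrays used.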

Additional observations from a re-analysis of the deposited data

How the results depend on the processing

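The 6 falls in Sfpq-/- against control kept their direction and passed under all 16 alternatives, those that left out 1 array included, with limma adjusted p of 0.00307 or less; so did those against Sfpq+/-. Kcnip2 passed in both comparisons with Sfpq-/- only under array weights (0.36, adjusted p = 0.0219, and 0.375, adjusted p = 0.0294), which gave 7 members in place of 6. Under these weights 4609 of all genes were called against control in place of 2040, and 3635 against Sfpq+/- in place of 1994. The largest weights were those of control 2 (3.18) and Sfpq-/- 1 (2.99). Weights were estimated gene by gene because the default estimate did not converge. For Sfpq+/- against control the count of members passed was 1, Kcnip1, under the filter at the 75th percentile and 0 otherwise. Against Sfpq+/- the Kcnip1 difference of -1.37 was -2.001 with the median of probe sets. The differences of Kcnd3, Kcnip2 and Kcnip3 in Sfpq+/- against control, all close to 0, changed sign: Kcnd3 to -0.006 (no filter on probe sets), -0.082 (stricter filter, 75th percentile), -0.17 (median of probe sets), -0.014 (quantile normalization), -0.052 (each array centred on its median), -0.015 (Xist covariate), -0.036 (array weights) and Kcnip2 to 0.041 (median of probe sets), 0.15 (Xist covariate). When 1 array was left out they ran from -0.063 to 0.039, -0.080 to 0.10 and -0.20 to 0.063. Without a filter 39 of 158 probe sets of the members were called lower in place of 60 of 132, with more probe sets in the adjustment. Leaving out 1 array gave 43 to 62 called probe sets. The deviation count was 18 from the gene's median, and between 12 and 26 when 1 array was left out. Without a filter the pair values moved to -1.55 (Kcnip1 minus Kcnip2), 0.10 (Kcnip1 minus Kcnip3), -1.06 (Kcnip1 minus Kcnip4). With a gene level taken as the probe set median the pair values moved to 0.38 (Kcnd2 minus Kcnd3), 0.37 (Dpp6 minus Dpp10), -2.77 (Kcnip1 minus Kcnip2), -1.01 (Kcnip1 minus Kcnip3), -2.40 (Kcnip1 minus Kcnip4), 0.38 (Kcnip2 minus Kcnip4). When 1 array was left out the pairs ran from -0.024 to 0.14 (Kcnd2 minus Kcnd3), 0.55 to 0.59 (Dpp6 minus Dpp10), -2.11 to -1.92 (Kcnip1 minus Kcnip2), -0.46 to -0.21 (Kcnip1 minus Kcnip3), -1.53 to -1.36 (Kcnip1 minus Kcnip4), 1.47 to 1.90 (Kcnip2 minus Kcnip3), 0.49 to 0.62 (Kcnip2 minus Kcnip4), -1.33 to -0.96 (Kcnip3 minus Kcnip4). With the replicate number as a block (replicate block) 6 members passed in each comparison with Sfpq-/- and 0 in Sfpq+/- against control, and 59 probe sets were called in Sfpq-/- against control. The main fit did not use the numbers to pair the arrays. Correlations of deviations over genes exceeded 0.1 in 5 of 9 same-numbered pairs (-0.055 to 0.574) and in 5 of 18 other pairs (-0.533 to 0.363). With the block 2469 genes were called in Sfpq-/- against control, in place of 2040 without it. Whether arrays of the same number share a batch was not tested. The 3 pairs of replicate 3 lay between 0.303 and 0.574, and Kcnip3 was lowest in replicate 1 of each group. Not every array correlated best with its own number: control 1 did so more with Sfpq-/- 2 (0.363) than with Sfpq-/- 1 (0.276). The causes of these shifts were not tested. With 3 arrays a group, differences much smaller than those of Dpp6 may be missed.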

Other observations

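Over the 9 arrays, the gene levels most like that of Kcnip1 were those of the transcription factor gene Ebf4 (Pearson r = 0.9938), the sodium pump interacting gene Nkain2 (0.9934), the potassium channel gene Kcnq5 (0.9923), the alkaline phosphatase gene Alpl (0.9895) and the oxidoreductase gene Wwox (0.9878). These correlations are descriptions over 9 arrays that share the 3 groups, so any gene that is low in Sfpq-/- can come out as alike. In Sfpq+/- against control the log2 differences of the 5 genes were -0.24 for Ebf4, -0.43 for Nkain2, -0.13 for Kcnq5, -0.13 for Alpl and -0.12 for Wwox, and none passed limma's test. The Sfpq+/- arrays were among the 9 used to pick these genes, and Kcnip1 was lower on them than on control arrays. The negative signs thus follow in part from the choice and are no separate evidence.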
